A study of Mus musculus with 6 samples.

Results

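The cell cycle and DNA replication genes described here are 40 genes chosen by name: 7 that act at entry into the cycle from G1, 14 that license, copy and supply DNA in S phase, and 19 that act in G2 and mitosis. They are 40 of the 19176 genes tested and of 54446 gene identifiers in the count table, and all 40 passed the low-count filter. RNA sequencing measured them in mouse intestine, with 3 control libraries and 3 libraries called NEC, which stands for necrotizing enterocolitis, an inflammatory bowel disease of the newborn. All mice were WT and were sampled at 96 h. Control pups were fed by the dam, with neither hypoxia nor cold. NEC pups were gavaged with 40 µl of 33% Esbilac formula every 4 h over 96 h. At intervals of 12 h they also had 100 s of 99.9% N2 followed by 10 min at 4 °C. Feeding, hypoxia and cold were given together, so their parts cannot be told apart. The labels do not give the age, sex or intestinal segment, nor whether each library came from its own animal. The p-values therefore reflect only how far these samples vary, and part of that may be technical.

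The intestinal epithelium is renewed throughout life by cells that divide in the crypts, the pockets at the base of the villi. In G1, D-type cyclins with Cdk4 and E-type cyclins with Cdk2 inactivate the retinoblastoma family, which frees E2F factors to turn on genes for DNA replication. Genes for G2 and mitosis are transcribed later, under the control of the DREAM and MuvB complexes, B-Myb and FoxM1. Their promoters often carry a CHR element downstream of CCAAT boxes. Because these genes are read out mainly in dividing cells, fewer dividing cells and less of an RNA per cell cannot be told apart in RNA from whole tissue.

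Promoter sequences of 5 genes are shown because they carry the motifs known from S-phase and mitotic genes. RefSeq promoter windows (GRCm38.p6, 250 bases before to 50 after the start) were present for 32 of the 40 genes. Top2a (8 matches) and Cdk1 (6) had the most matches in a single window of the mitotic genes, and the 200 bases before the start are shown. Of the S-phase genes Mcm3, Mcm5, Mcm6 and Mcm7 tied at 5 in a single window, and the first 2 by name are shown. Mcm7 has 1 more match in a second window and is not shown. Mcm6 was added after its matches were seen, for its 3 E2F matches. Each is printed 5′ to 3′ on the strand of the gene, with matches to the searched letters in capitals. Mcm3 lies at chr1:20820313-20820512 (minus strand), Mcm5 at chr8:75109309-75109508 (plus), Mcm6 at chr1:128359706-128359905 (minus), Top2a at chr11:99024190-99024389 (minus) and Cdk1 at chr10:69352913-69353112 (minus).
Mcm3: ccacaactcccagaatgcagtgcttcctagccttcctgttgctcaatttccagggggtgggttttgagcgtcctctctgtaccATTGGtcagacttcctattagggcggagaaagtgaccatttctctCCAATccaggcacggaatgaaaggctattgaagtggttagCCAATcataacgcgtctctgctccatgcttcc
Mcm5: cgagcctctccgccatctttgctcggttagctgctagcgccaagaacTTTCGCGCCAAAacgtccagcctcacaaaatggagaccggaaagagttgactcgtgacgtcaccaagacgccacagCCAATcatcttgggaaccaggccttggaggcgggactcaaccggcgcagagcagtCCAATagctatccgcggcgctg
Mcm6: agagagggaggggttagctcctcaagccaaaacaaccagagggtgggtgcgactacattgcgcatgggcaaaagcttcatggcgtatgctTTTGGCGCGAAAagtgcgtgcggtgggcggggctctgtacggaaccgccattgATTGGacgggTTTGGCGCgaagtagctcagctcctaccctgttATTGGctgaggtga
Top2a: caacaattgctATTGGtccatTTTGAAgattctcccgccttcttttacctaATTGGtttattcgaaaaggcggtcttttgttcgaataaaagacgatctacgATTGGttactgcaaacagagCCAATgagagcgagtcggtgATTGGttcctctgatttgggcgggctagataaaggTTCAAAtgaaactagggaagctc
Cdk1: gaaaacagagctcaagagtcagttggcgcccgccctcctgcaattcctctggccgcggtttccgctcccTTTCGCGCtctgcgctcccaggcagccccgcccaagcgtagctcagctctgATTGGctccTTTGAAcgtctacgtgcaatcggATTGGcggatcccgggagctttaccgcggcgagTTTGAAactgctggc
The E2F letters searched were TTTCCCGC, TTTGGCGC, TTTCGCGC and TTTGCCGC, the CHR letters TTTGAA and the CCAAT-box letters CCAAT, each on both strands. Overlapping matches run together, so TTTCGCGCCAAA in Mcm5 and TTTGGCGCGAAA in Mcm6 each hold 2 E2F matches on opposite strands. E2F letters occurred in the windows of 6 of 12 S-phase genes and 1 of 16 mitotic genes, against 2.26% of all 32851 windows. CHR letters occurred in 1 of 12 S-phase genes and 12 of 16 mitotic genes, against 17.9% of all windows. CCAAT letters occurred in 8 of 12 S-phase and 15 of 16 mitotic genes, against 37.4% of all windows. All 12 mitotic genes with CHR letters also held CCAAT letters, a pair found in 6.95% of all windows. The stretch of Mcm3 shows 3 CCAAT matches only, since its E2F letters lie after the start. That of Top2a shows 5 CCAAT and 2 CHR matches, and that of Cdk1 shows 2 CCAAT, 2 CHR and 1 E2F match. A match is a run of letters and no measurement of binding.

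Total counts per library ran from 69441184 to 106304239, and the 40 genes had between 32 and 17154 counts in a library. Epithelial RNA was abundant in all 6 libraries: Epcam, an epithelial adhesion molecule, ran from 1833 to 2953 CPM (counts scaled by library size), and Apoa4, an apolipoprotein of enterocytes, from 28758 to 105393 CPM. Xist, expressed from the inactive X of females, had 179 and 344 CPM in replicates 1 and 2 of control, with at most 1.17 CPM in the other 4 libraries, and the Y-linked Ddx3y was at 1.29 CPM in control replicate 2 and at 19.8 CPM or more in the others. Control replicate 1 therefore held both RNAs, and without it edgeR called 0 of the 40 genes and 0 of all genes, with Rrm2 at an unadjusted p under 0.05. High Xist was seen in control libraries only, so sex-linked RNA was not balanced between the groups. What this imbalance adds to the group differences was not tested. Counting is not stated to use strand, and 12 of the 40 genes share exonic bases with a gene on the opposite strand (Ccnd1, Ccnd2, Cdk4, Ccne2, Cdk2, Mcm7, Gins2, Tk1, Ccna2, Plk1, Cdc20 and Prc1), so their counts are less certain. Gins2 shares most, 2758 bases with Gse1.

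Between NEC and control, 0 of the 40 genes passed edgeR's quasi-likelihood test at an adjusted p under 0.05, where 135 of 19176 genes (0.704%) did, 50 higher in NEC (0.261%) and 85 lower (0.443%). At an unadjusted p under 0.05 there were 2 of the 40, Rrm2 (higher in NEC) and E2f1 (lower), where 15.6% of all genes reached that level and 7.99% did so with a lower value in NEC. The groups did not overlap for 3 of 40 genes, Rrm2 and Pcna with all NEC libraries higher and E2f1 with all lower. Over all genes 22.4% had groups that did not overlap, 10.8% with NEC higher and 11.6% with NEC lower, so the share among the 40 was below the background. DESeq2, which called 1448 genes (7.55%), called 1 of the 40, Rrm2.

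The log2 fold changes, positive where NEC is higher, lay on both sides of 0: 18 of 40 were positive and 22 negative. Their median was -0.06, beside 0.03 over all genes tested. Separately, the median was -0.17 for the 7 G1 genes, 0.07 for the 14 S-phase genes (8 positive, 6 negative, range -0.39 to 1.78) and -0.14 for the 19 mitotic genes (7 positive, 12 negative, range -0.63 to 0.57). Adjusted p-values from edgeR ran from 0.149 to 0.995. The 95% intervals were wide: the median distance from the estimate to either end was 0.95 on the log2 scale, and for 7 of 40 genes the interval lay within a halving and a doubling (-1 to 1). On simulated counts the test recovered 0% of genes changed by 1 on the log2 scale and 50% of those changed by 2, so larger differences could also be missed. The test does not show that levels were alike.

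**Figure D1:**
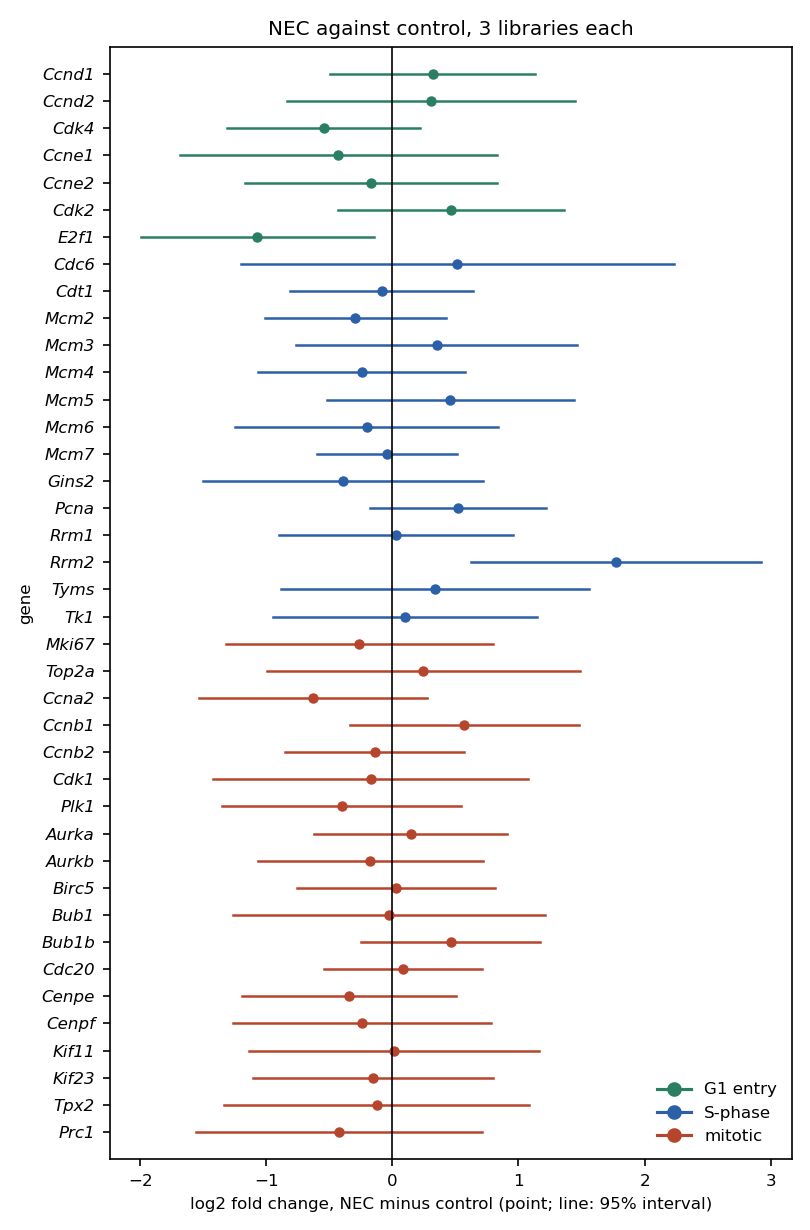
Log2 fold change of each gene, NEC minus control (point), with its 95% interval (line), from edgeR on 3 libraries per group; green marks G1 genes, blue S-phase genes and red mitotic genes. The intervals of Rrm2 and E2f1 do not reach 0, and those of the other 38 do.

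Among the D-type cyclins and their kinase, Cdk4 had the highest level per length of the 40 genes, a mean of 52.7 RPKM (CPM per kilobase of exon). It was at 233, 246 and 130 CPM in replicates 1, 2 and 3 of the control group, against 101, 178 and 139 CPM in those of NEC. The groups overlapped because control replicate 3 lay below NEC replicates 2 and 3, and the log2 fold change was -0.54 (SE 0.33, adjusted p = 0.484, edgeR). Ccnd1, a D-type cyclin that answers growth signals, was at 14, 16.0 and 12.2 CPM in the control libraries against 13.5, 26.6 and 12.5 CPM in NEC. Its fold change of 0.32 on the log2 scale (SE 0.35, adjusted p = 0.726, edgeR) came with 1 high library, NEC replicate 2. The related Ccnd2 had a log2 fold change of 0.31 and was also highest in that library.

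E2f1, the activator E2F that drives S-phase genes, was at 12.7, 9.57 and 6.97 CPM in the control libraries against 4.10, 6.75 and 3.05 CPM in NEC. Every NEC library was below every control library, though NEC replicate 2 came close to control replicate 3. The log2 fold change was -1.07 (SE 0.40, unadjusted p = 0.028), with an adjusted p of 0.258 in edgeR. Cdk2, the kinase partner of E- and A-type cyclins, was at 13.9, 9.22 and 6.16 CPM in the control libraries against 16.7, 8.98 and 14.8 CPM in NEC, with a log2 fold change of 0.47 (SE 0.39, adjusted p = 0.626, edgeR). Unlike most of the other genes, it was highest in NEC replicate 1. The E-type cyclins Ccne1 and Ccne2 had log2 fold changes of -0.43 and -0.17 with adjusted p-values of 0.769 and 0.904 in edgeR.

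Origin licensing loads the Mcm2 to Mcm7 helicase onto DNA with the help of Cdc6 and Cdt1. Mcm6 had the highest level per length of these genes (11.4 RPKM). It was at 47.9, 69.1 and 54.1 CPM in the control libraries against 30.9, 88.6 and 28.9 CPM in NEC, so the NEC libraries lay on both sides of all controls. Mcm5 was at 6.40, 7.87 and 6.24 CPM in the control libraries against 5.64, 15.6 and 6.94 CPM in NEC, and Mcm2 at 22.8, 23.3 and 26.7 CPM and at 16.6, 28.5 and 14.4 CPM. Each of the 3 was highest in NEC replicate 2, and the log2 fold changes were -0.20 for Mcm6, 0.46 for Mcm5 and -0.29 for Mcm2, with adjusted p-values of 0.887, 0.667 and 0.715 in edgeR. Mcm3, Mcm4 and Mcm7 had log2 fold changes of 0.35, -0.24 and -0.04. The loader Cdc6 had the lowest level per length of the 40 genes (0.196 RPKM), and its interval was the widest here, from -1.20 to 2.23 on the log2 scale. Cdt1 had a log2 fold change of -0.09 and was highest in NEC replicate 1 and lowest in NEC replicate 2. Gins2, part of the active helicase, had one of -0.39.

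Pcna, the sliding clamp that holds polymerases on DNA, had the second highest level per length (44.7 RPKM). It was at 95.7, 113 and 55.5 CPM in the control libraries against 115, 146 and 118 CPM in NEC. All NEC libraries lay above all controls, NEC replicate 1 by a small margin over control replicate 2, and the spread within control was larger than that gap. The log2 fold change was 0.52 (SE 0.30, adjusted p = 0.455, edgeR).

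Of the genes that supply nucleotides, Rrm2 stood apart. It encodes the regulatory subunit of ribonucleotide reductase, which makes deoxyribonucleotides and is limiting in S phase (ENSMUSG00000020649, mm10 chromosome 12, 24708241 to 24714146, plus strand). Rrm2 was at 8.45, 7.47 and 6.82 CPM in the control libraries against 37.5, 9.07 and 31.3 CPM in NEC. The controls were close to each other (7.58 ± 0.82 CPM, SD, n = 3), NEC replicates 1 and 3 were far above them, and NEC replicate 2 was just above them (group 25.9 ± 14.9 CPM, SD, n = 3). The log2 fold change was 1.78 (95% interval 0.63 to 2.92, SE 0.49, unadjusted p = 0.0075), with an adjusted p of 0.149 in edgeR. It was 2.18 with an adjusted p of 0.0375 (edgeR) without NEC replicate 2, and the adjusted p was 0.0111 in DESeq2 on all libraries. Over the other alternatives the adjusted p ran from 0.126 to 0.413.

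Rrm1, the catalytic partner subunit, had a log2 fold change of 0.03 (95% interval -0.90 to 0.95, SE 0.40) and was highest in NEC replicate 2, the library in which Rrm2 was lowest of the NEC group. The difference between both subunits was not tested. Tyms, which makes thymidylate, was at 12.0, 16.1 and 7.42 CPM in the control libraries against 7.78, 27.4 and 9.73 CPM in NEC, with a log2 fold change of 0.34 (SE 0.53, adjusted p = 0.822, edgeR). Tk1, the salvage thymidine kinase, had one of 0.10 and was also highest in NEC replicate 2.

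**Figure D2:**
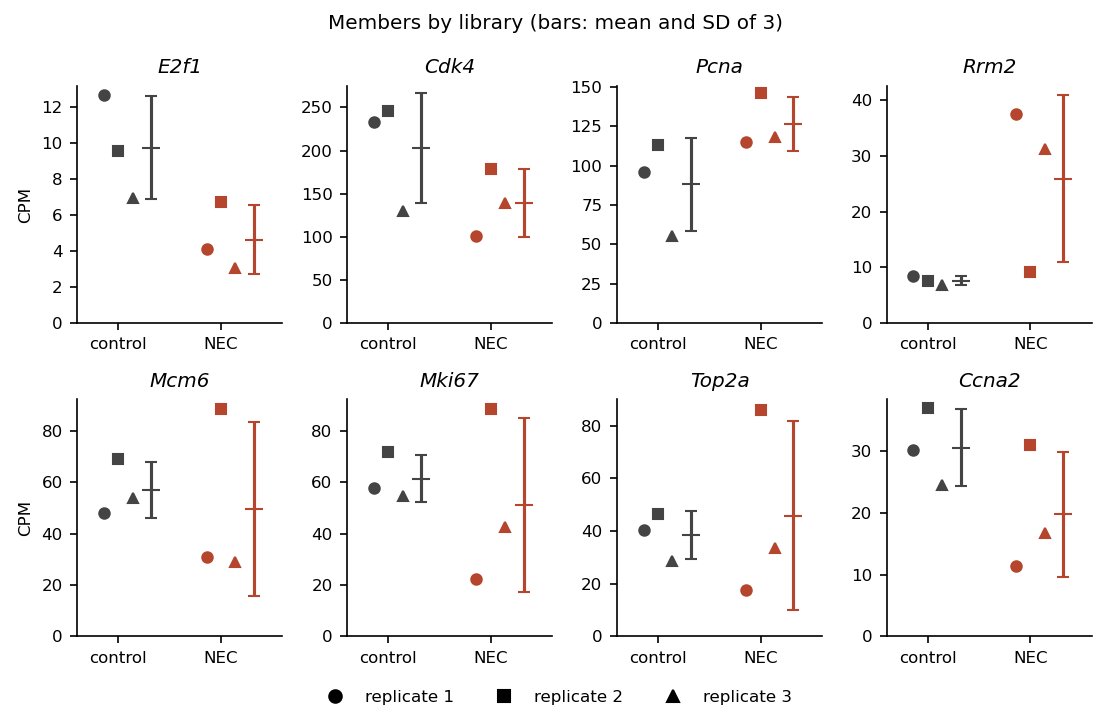
CPM of 8 genes in each library (circle, square and triangle for replicates 1, 2 and 3), with the mean and SD of 3 libraries beside them; each axis starts at 0. E2f1 and Pcna do not overlap between groups, Rrm2 is high in NEC replicates 1 and 3, and Mcm6, Mki67 and Top2a are highest in NEC replicate 2.

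The mitotic genes were marked by disagreement among the NEC libraries. Mki67, a protein of the surface of mitotic chromosomes that is used as the standard marker of dividing cells, was at 57.9, 71.7 and 54.6 CPM in the control libraries against 22.5, 88.6 and 42.7 CPM in NEC. Top2a, which untangles sister chromatids, was at 40.5, 46.5 and 28.6 CPM in the control libraries against 17.6, 86.2 and 33.5 CPM in NEC. In both genes NEC replicate 1 was the lowest library of all and NEC replicate 2 the highest, so the log2 fold changes of -0.26 (SE 0.46) and 0.25 (SE 0.54) average opposite deviations.

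Ccna2, the A-type cyclin of S phase and G2, had the lowest log2 fold change of the mitotic genes, -0.63 (SE 0.39, adjusted p = 0.494, edgeR), from 30.2, 36.9 and 24.5 CPM in the control libraries against 11.4, 31.0 and 16.8 CPM in NEC. Ccnb1, the B-type cyclin that takes cells into mitosis, had the highest, 0.57 (SE 0.39, adjusted p = 0.543, edgeR), from 10.1, 9.44 and 5.89 CPM and 7.12, 16.9 and 13.8 CPM. Ccnb2, a second B-type cyclin, was at 10.7, 14.3 and 12.8 CPM and at 8.15, 11.2 and 15.0 CPM. These cyclins thus differed in sign, and the groups overlapped for each. Cdk1, the kinase they activate, had a log2 fold change of -0.17 and was 4.94 times as high in NEC replicate 2 as in NEC replicate 1.

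Among the mitotic kinases, Plk1 departed from the order of Mki67 and Top2a: it was at 5.63, 5.52 and 12.3 CPM in control, highest in control replicate 3, and at 7.39, 5.81 and 4.54 CPM in NEC. Aurkb, the kinase of the chromosomal passenger complex, was at 4.84, 4.91 and 6.75 CPM and at 3.70, 7.31 and 3.61 CPM. Its partner Birc5, or survivin, was at 15.6, 18.7 and 17.0 CPM and at 11.1, 25.6 and 15.7 CPM. The log2 fold changes of Plk1, Aurkb and Birc5 were -0.40, -0.17 and 0.03, and that of Aurka, which builds spindle poles, was 0.15.

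Of the spindle checkpoint genes, Bub1b was at 7.43, 8.30 and 6.99 CPM in the control libraries against 7.29, 13.2 and 10.8 CPM in the NEC libraries (log2 fold change 0.46, SE 0.31). Cdc20, which activates the anaphase-promoting complex, was at 7.89, 9.45 and 8.49 CPM and at 8.27, 10.9 and 8.22 CPM (0.08, SE 0.27). Cdc20 was the most even of these, with every library between 7.89 and 10.9 CPM. The checkpoint kinase Bub1 had a log2 fold change of -0.03, from NEC libraries that ran from 1.58 to 7.57 CPM.

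At the kinetochore, which joins chromosomes to the spindle, Cenpe was at 10.8, 12.1 and 12.0 CPM in the control libraries against 5.10, 13.0 and 9.35 CPM in NEC. Cenpf was at 11.5, 13.6 and 8.96 CPM and at 4.87, 15.8 and 8.18 CPM. Their log2 fold changes were -0.34 and -0.24. Both followed the order seen in Mki67, with NEC replicate 1 lowest and NEC replicate 2 highest.

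The spindle and midzone genes kept that order too. Prc1, which bundles midzone microtubules, was at 17.1, 14.2 and 11.4 CPM in the control libraries against 4.18, 17.5 and 10.2 CPM in NEC. Tpx2, a spindle assembly factor, was at 16.4, 13.8 and 8.96 CPM and at 4.52, 20.2 and 11.3 CPM. Kif23, a motor of the midzone, was at 7.54, 9.40 and 8.19 CPM and at 4.15, 12.0 and 6.44 CPM. Their log2 fold changes were -0.42, -0.12 and -0.15, and that of the spindle motor Kif11 was 0.01. NEC replicate 2 exceeded NEC replicate 1 by 4.18 times in Prc1, 4.47 times in Tpx2, 2.89 times in Kif23 and 4.51 times in Kif11.

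Counted over the whole set, NEC replicate 2 was the highest of the 6 libraries for 29 of 40 genes: 16 of 19 mitotic, 11 of 14 S-phase and 2 of 7 G1 genes. It was highest for 18.9% of all genes tested. NEC replicate 1 was the lowest library for 20 of 40, namely 13 of 19 mitotic, 5 of 14 S-phase and 2 of 7 G1 genes, beside 19.6% of all genes. Both held at once for 16 of 40 genes and for 5.66% of all genes. Of the mitotic genes 14 of 19 had NEC replicates 1, 3 and 2 in rising order of level, as had 7 of 14 S-phase genes and 23.3% of all genes. NEC replicate 2 was the highest for 16 mitotic genes under each of the 4 library scalings run and for 11 or 12 S-phase genes, while NEC replicate 1 was the lowest for 13 to 16 mitotic and 5 S-phase genes. Over all genes the share highest in NEC replicate 2 also moved with the scaling, to 23.5% with upper quartile scaling and 32% with library size only. The share lowest in NEC replicate 1 ran from 18% to 23.6%. Libraries of a group have no order, so this describes these 6 libraries.

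**Figure D3:**
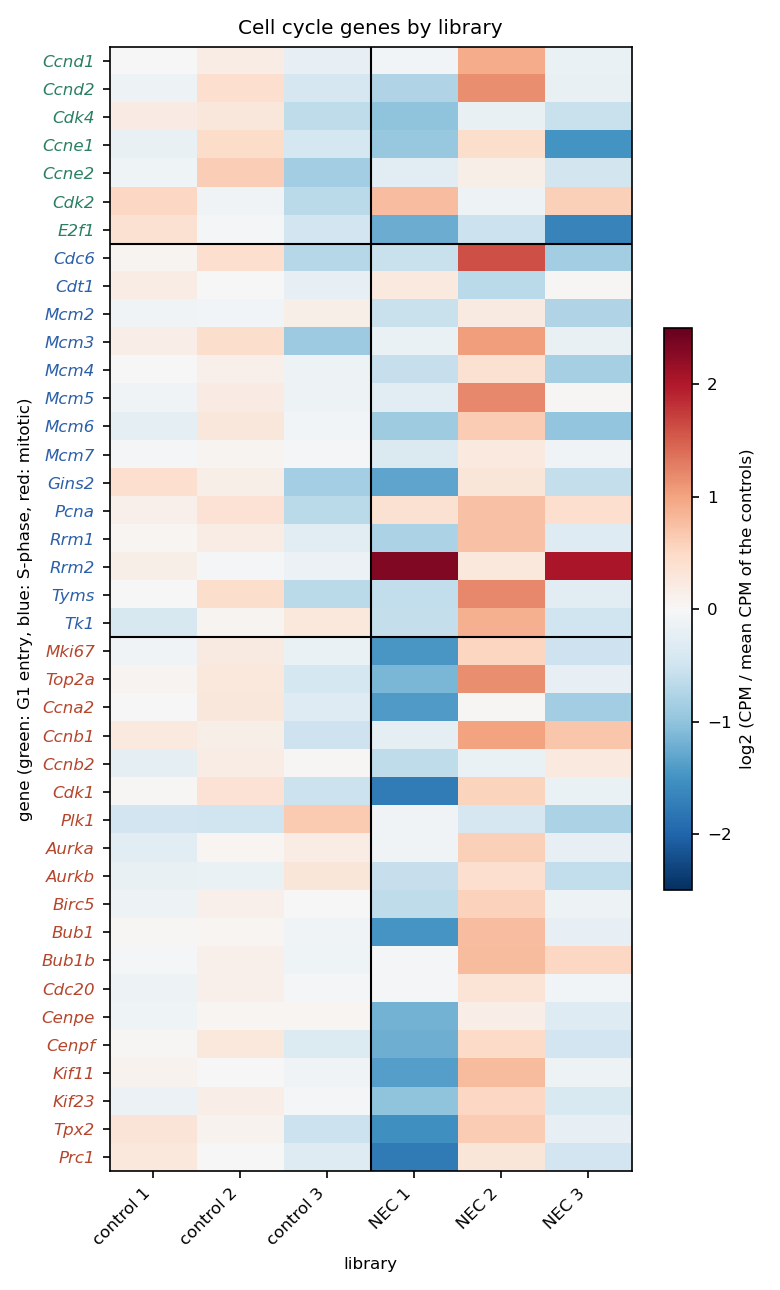
Log2 ratio of CPM to the mean CPM of the 3 controls (colour, blue lower and red higher) for 40 genes (rows, grouped as G1 entry, S-phase and mitotic) in 6 libraries (columns). Most mitotic rows are blue in NEC replicate 1 and red in NEC replicate 2, and Rrm2 is red in NEC replicates 1 and 3.

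The deviations can be given for each class. For the median mitotic gene, NEC replicates 1, 2 and 3 lay at -1.13, 0.53 and -0.20 on the log2 scale relative to the control mean, where controls lay at -0.03, 0.13 and -0.09. For the median S-phase gene the NEC libraries lay at -0.55, 0.68 and -0.30 and the controls at 0.03, 0.16 and -0.18. NEC replicate 2 was a median 2.73 times NEC replicate 1 for mitotic genes and 2.53 times for S-phase genes, beside 1.03 times for all genes. The highest control exceeded the lowest by a median 1.38 times and 1.41 times. The SD of log2 CPM was larger in NEC than in control for 34 of 40 genes, 18 of them among the 19 mitotic genes, beside 53.3% of all genes tested.

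Leaving out NEC replicate 2 shifted the log2 fold change by over 1 SE in 25 of 40 genes, and leaving out any other single library did so in 0 or 1. Without it the median log2 fold change was -0.49 for S-phase genes, against 0.07 with it, and -0.64 for mitotic genes. In that fit Rrm2 alone of the 40 genes passed the adjusted test, as did 0.507% of all genes tested. Without NEC replicate 1 the mitotic median was 0.15 and 0 of 40 genes passed. The sign of either median thus rested on single libraries.

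**Figure D4:**
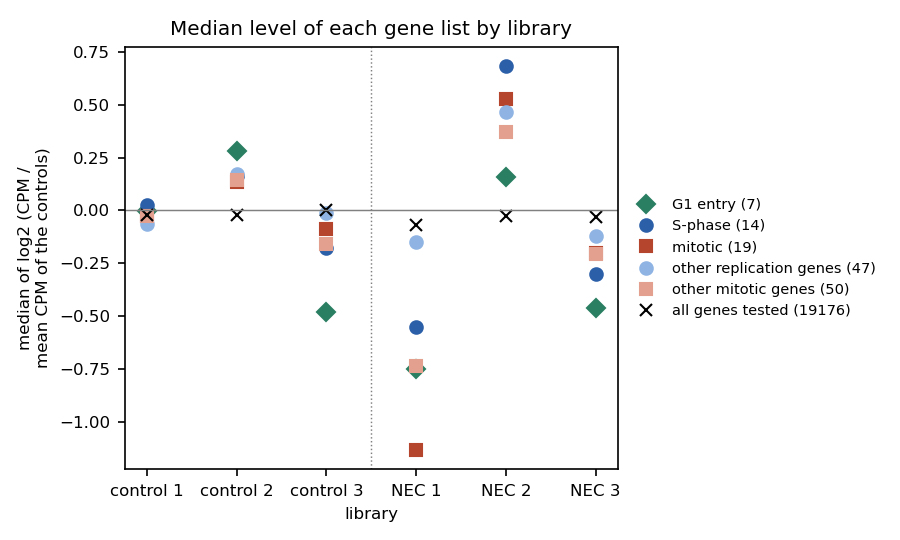
Median over each gene list (number of genes in brackets) of the log2 ratio of CPM to the mean CPM of the controls, for 6 libraries. The mitotic median is -1.13 in NEC replicate 1 and 0.53 in NEC replicate 2, while the median of all genes tested stays near 0 in each library.

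Marker genes of cell types differed between the same libraries, and their part in the result was not tested. NEC replicate 2 had the highest sum of 7 fibroblast markers (1896 CPM, other libraries 491 to 927). Its sum of 6 smooth muscle markers was also the highest (3009 CPM, others 865 to 2050). It had the lowest sum of 8 mature enterocyte markers, 34618 CPM beside 43450 to 121227 in the others. The 8 erythroid markers summed to 213 to 338 CPM in control. In NEC replicates 1, 2 and 3 they summed to 476, 2752 and 1258 CPM, so every NEC library was above every control. By single marker, 4 of the 8 were higher in every NEC library, beside 10.8% of all genes. The log2 fold change was positive for 7 of the 8 and negative for 1. The 10 crypt stem and transit amplifying markers summed to 417 to 547 CPM in control and to 136, 360 and 313 CPM in NEC replicates 1, 2 and 3, lower in every NEC library than in every control. Olfm4, a crypt stem cell marker, carried the separation of this sum. It was at 221 to 328 CPM in the control libraries against 18.1, 121 and 105 CPM in NEC. The other 9 markers summed to 196 to 219 CPM in the control libraries against 118, 239 and 207 CPM in NEC, so the groups overlapped. Slc12a2, the most abundant of these 9, was at 81.5 to 96.8 CPM in control and 69.2 to 143 CPM in NEC. Lgr5, another crypt stem cell marker, reached 11.5 CPM in control and ran from 5.85 to 12.5 CPM in NEC, and the groups overlapped. Taken singly, 3 of the 10 markers (Olfm4, Ascl2 and Axin2) were lower in every NEC library, beside 11.6% of all genes. Of the 10, 7 had a negative log2 fold change and 3 a positive one. No marker of these 5 lists found in the table was at 0 in all libraries. The 10 neutrophil and myeloid progenitor markers summed to 5.68 to 12.2 CPM in control and 27.9 to 55.6 CPM in NEC, with Ly6g and Elane at 0 in every library. The 8 macrophage markers summed to 318 to 401 CPM in the control libraries against 218 to 314 CPM in NEC, a difference carried by Csf1r. Without Csf1r the sum was 68.7 to 81.6 CPM in the control libraries against 83.0 to 165 CPM in NEC, and 7 of 8 macrophage markers had a positive log2 fold change, with 1 called higher in NEC (Cd163, adjusted p = 0.0396, edgeR). Sums of epithelial, B cell, T cell, endothelial and enteric neuron and glia markers overlapped between the groups.

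The labels also hold sample codes of 2 kinds, whose meaning they do not state. The 4 libraries whose code starts with AG181017 are control replicates 1 and 2 and NEC replicates 2 and 3, and the other 2 start with AG181028. Within AG181017 the median fold, NEC over control, was 1.17 for S-phase and 1.09 for mitotic genes, beside 1.03 for all genes. Within AG181028, 1 library against 1 with no test, it was 0.851 and 0.543, beside 0.981 for all genes. The AG181017 fold averages NEC replicates 2 and 3, which differed. NEC replicate 2 was above all controls for 30 of 40 genes, beside 31.8% of all genes. NEC replicate 3 was above them for 6 of 40 and below them for 19, beside 5938 and 5484 of 19176 genes tested. The fold lay above 1 within AG181017 and below 1 within AG181028 for 18 of 40 genes, above 1 in both for 9 and below 1 in both for 11. By code, it lay above 1 for 27 of 40 genes within AG181017 and 11 within AG181028, beside 10187 and 9398 of 19176 genes. Rrm2 was higher in NEC within both codes (2.53 and 5.49 times), as was Pcna (1.26 and 2.08 times), and E2f1 was lower within both (0.440 and 0.588 times). The groups did not overlap for these genes, so any split of the libraries gives the same direction, and the agreement adds no support.

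The neighbouring genes of the pathway gave the same count: 0 of 138 genes in 5 further lists passed the edgeR test, and DESeq2 called 5 (Orc2, Rpa1, E2f3, E2f8 and Cdkn1b), a smaller share than the 7.55% of all genes it called. Among 47 other replication genes the median log2 fold change was 0.07, and 8 had an unadjusted p under 0.05 (5 higher, 3 lower), a share near the 15.6% of all genes. Rpa1, the large subunit of the complex that coats single-stranded DNA, was at 5.91, 7.13 and 10.4 CPM in the control libraries against 23.7, 29.5 and 23.2 CPM in NEC. All 3 NEC libraries were well above all controls, with a log2 fold change of 1.70 (SE 0.30) and an adjusted p of 0.0559 in edgeR. That adjusted p was 1.71e-05 in DESeq2, 0.04995 in limma-voom, 0.0416 without the low-count filter in edgeR and 0.0418 with the sample code as a term in edgeR, and 0.0811 to 0.275 with a library left out. Rpa1 shares exonic bases with Gm47300 on its own strand, so counts could be split between them.

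Orc2, part of the complex that marks origins, was at 6.51, 6.16 and 6.30 CPM in the control libraries against 9.48, 13.5 and 15.7 CPM in the NEC libraries (log2 fold change 1.03, SE 0.29, adjusted p = 0.15, edgeR), and shares 1150 exonic bases with Nif3l1 on the opposite strand. Rfc5, a subunit of the clamp loader, had the opposite sign, -0.75 (SE 0.27, adjusted p = 0.251, edgeR). The 50 other mitotic genes had a median of -0.03, with 1 at an unadjusted p under 0.05, where 15.6% of all genes reached that level. That gene was the cytokinesis factor Ect2 (-0.74, SE 0.30, adjusted p = 0.293, edgeR). Cdca8 and Nusap1 followed at -0.66 and 0.55. NEC replicate 1 was the lowest library for 35 of these 50 genes and NEC replicate 2 the highest for 29.

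The 19 E2F, DREAM and related transcription factors had a median log2 fold change of -0.04, and 3 had an unadjusted p under 0.05, all lower in NEC, again a share near the 15.6% of all genes. E2f3, an activator E2F, was at 36.5, 24.7 and 41.1 CPM in the control libraries against 15.8, 10.6 and 10.5 CPM in NEC. E2f8, an atypical E2F that represses, was at 25.8, 23.2 and 40.8 CPM and at 14.9, 9.13 and 10.1 CPM. Both were lower in every NEC library than in every control, NEC replicate 2 included, with log2 fold changes of -1.47 (SE 0.30) and -1.40 (SE 0.33) and adjusted p-values of 0.0811 and 0.106 in edgeR. These became 0.00104 and 0.00502 in DESeq2, and 0.0413 and 0.0352 in edgeR with the sample code as a term. Neither gene passed under the other alternatives, run in edgeR or limma-voom. There the adjusted p ran from 0.0693 to 0.323 for E2f3 and from 0.0933 to 0.358 for E2f8. E2f2 had -0.94 with groups that overlapped. NEC replicate 2 was the highest library for 1 of these 19 genes.

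The 14 CDK inhibitors and other brakes had a median log2 fold change of -0.49, with 10 negative and 4 positive, and 7 of 14 were lower in every NEC library, beside 11.6% of all genes tested. Of these 7, Cdkn2a had at most 23 counts in a library. Others separated narrowly: the lowest control and highest NEC library were at 2.46 and 2.43 CPM for Pkmyt1 and at 24.3 and 23.6 CPM for Wee1. At an unadjusted p under 0.05, 5 of the 14 were lower and 1 higher. Over all genes 15.6% reached that level, 7.99% with a lower value in NEC. The list was chosen with earlier results of these data known, so these shares are no test of the list. Cdkn1b, or p27, which holds cells in quiescence, was at 63.9, 47.9 and 54.6 CPM in the control libraries against 31.1, 25.7 and 18.9 CPM in NEC (-1.14, SE 0.26, adjusted p = 0.102 in edgeR and 0.00809 in DESeq2). Over the other alternatives, run in edgeR or limma-voom, its adjusted p ran from 0.070 to 0.380. Cdkn1c, or p57, was at 402, 297 and 391 CPM and at 229, 252 and 193 CPM (-0.69, SE 0.24, adjusted p = 0.23, edgeR). Cdkn2c, or p18, had -0.87 (SE 0.31, adjusted p = 0.237, edgeR). Cdkn1a, or p21, a target of p53 named after its values were seen, went the other way: it was at 79.4, 61.0 and 113 CPM in the control libraries against 314, 81.4 and 202 CPM in NEC (1.23, SE 0.48, adjusted p = 0.277, edgeR). As with Rrm2, NEC replicates 1 and 3 were high and NEC replicate 2 was near the controls. Of 8 other cyclins and CDKs, the p53 target Ccng1 had the smallest p (-0.77, SE 0.24, adjusted p = 0.198, edgeR), followed by Mnat1 (0.83) and Ccnd3 (-0.97).

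**Figure D5:**
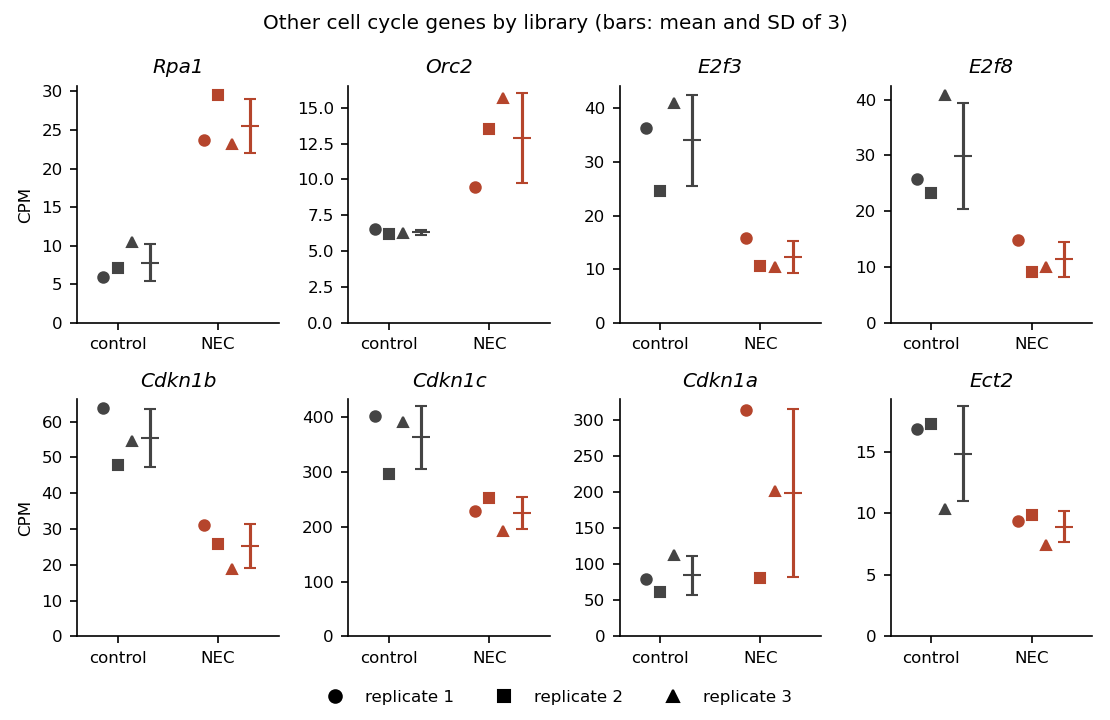
CPM of 8 further cell cycle genes in each library (circle, square and triangle for replicates 1, 2 and 3), with the mean and SD of 3 libraries; each axis starts at 0. Rpa1 and Orc2 are higher and E2f3, E2f8, Cdkn1b, Cdkn1c and Ect2 lower in every NEC library, while Cdkn1a in NEC replicate 2 lies within the controls.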

How the data were processed

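Whole-number counts per gene in 6 samples, as the authors deposited them, were the starting point. The genome build is mm10, per the submitters' processing notes, with the aligner, counter, annotation and use of strand not given in the sources used here. Total intestinal RNA was isolated by TRIzol, and libraries were read as 150 bp pairs on a NovaSeq, per the labels' protocols. Of 54446 identifiers 54409 matched a symbol. Totals were 69441184 to 106304239 counts. Counts at multiples of 4 were 1.83 times as frequent as their neighbours, so totals may overstate the fragments sequenced.

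Genes kept by filterByExpr (minimum count 10) numbered 19176. They were scaled by TMM and tested in edgeR 4.0.16 (R 4.3.3) with glmQLFit (robust=TRUE) and the two-sided quasi-likelihood F test, NEC against control, with Benjamini-Hochberg adjustment over all of them and a threshold of 0.05. Intervals are 95% intervals of that fit. CPM use TMM-scaled library sizes, and RPKM divide them by the exon length in GENCODE M21, whose positions are counted from 1. On simulated counts for 18584 genes the test recovered 0%, 50%, 82% and 96% of genes changed by 1, 2, 3 and 4 on the log2 scale. No 2 libraries were as close as sampling noise.

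The 40 members and the further lists were chosen with earlier results of these data known. In each of 11 roles, values in every library are given for the 2 members with the smallest p and the 1 with the highest level per length, and from each further list up to 3 genes with the smallest p are named. Promoters shown were the 2 per class with most matches in a single window, ties by name, and Mcm6. Of the 34 windows of members, 29 matched a GENCODE transcript of the gene just after the start. Each result was recomputed with upper quartile, RLE and library-size scaling, without a filter, with at least 50 counts in 3 samples, with DESeq2 1.42.0, limma-voom (limma 3.58.1) and robust=FALSE, with a block for the replicate number, with the sample code as a term, in the AG181017 samples alone and leaving out each library. Counts of the highest and lowest library under other scalings were added after seeing the data.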

Additional observations from a re-analysis of the deposited data

How the results depend on the processing

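The count of members called was 0 under 15 of the 17 alternatives run on all genes, and 1 (Rrm2) in DESeq2 and without NEC replicate 2, a range of 0 to 1 with a library left out. The count of all genes called, 135, was 247 with no low-count filter, 1448 in DESeq2, 54 with the replicate block, 243 with the sample code as a term, 25 in the AG181017 samples alone, and 0 to 106 with a library left out (0 without control replicate 1 and 25 without replicate 3 of that group, 34 and 3 without replicates 1 and 3 of NEC). With a library left out, the median log2 fold change ran from -0.49 (without NEC replicate 2) to 0.33 for S-phase members, from -0.64 to 0.15 for mitotic members and from -0.47 to 0.27 (without control replicate 2) for G1 members. The S-phase median was also below 0 in limma-voom (-0.05), with the replicate block (-0.05), without control replicate 3 (-0.02) and with Ccne1, Ccne2, Cdk2 and E2f1 counted in it (-0.01). The mitotic median was 0.10 in the AG181017 samples alone. The cause of these shifts was not tested. The sign of the fold change held under all 17 alternatives for 14 of 40 members, Rrm2, Pcna and E2f1 included, and not for the other 26. The groups did not overlap for Rrm2, Pcna and E2f1, so leaving out a library could not be expected to turn their signs. Scaling by library size alone put the median of all genes at 0.10, a shift that carries over to each member. Deviations of same-numbered libraries correlated at -0.14, 0.27 and -0.01, so the numbers do not pair them consistently. The highest correlation of a control with an NEC library, 0.36, was between control replicate 3 and NEC replicate 1, both coded AG181028. The replicate block called 0 members. With 3 libraries a group the intervals reached a median 0.95 to either side, and in the simulation log2 changes of 1 were not recovered and 50% of those of 2 were.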
